A study of Mus musculus with 16 samples.

Results

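The genes of glycolysis, the tricarboxylic acid (TCA) cycle and the pentose phosphate pathway were read in epididymal white adipose tissue (eWAT), a visceral fat depot. They are 54 of the 45777 genes in the deposited gene table, taken by gene symbol, and all 54 passed the filter on low counts that left 19189 genes for testing. They were read in 8 segments along the pathways, from glucose and lactate transport to the pentose phosphate pathway. Glycolysis splits glucose into pyruvate, which is turned into lactate in the cytosol or enters mitochondria. There it is made into acetyl-CoA or oxaloacetate, which feed the TCA cycle. In fat cells, citrate that leaves the mitochondria supplies carbon for fatty acid synthesis, and malic enzyme and the oxidative pentose phosphate pathway supply its NADPH. Many steps are catalysed by isoforms that differ between cell types, and macrophages, like fat cells, express a full glycolytic pathway.

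All mice were male and received a high-fat diet, with 60% of its energy as fat, from 4 weeks of age. The groups were OE at 20 weeks of age after 16 weeks of diet (OE_20wk), Ctrl at 20 weeks after 16 weeks of diet (Ctrl_20wk), OE at 8 weeks after 4 weeks of diet (OE_8wk) and Ctrl at 8 weeks after 4 weeks of diet (Ctrl_8wk). OE stands for A-LTA4HOE, mice with overexpression of LTA4H, leukotriene A4 hydrolase, in adipocytes, and Ctrl for their control mice. Each group had 4 RNA-seq libraries. The promoter of the transgene, the control genotype and whether each library came from 1 mouse were not given in the sources used here, so p-values measure only the spread between these libraries. There was no group on another diet, and effects of age, of diet duration and of any batch tied to age cannot be told apart.

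Total counts were 33626901 to 67576994 per library. Lta4h was higher in OE at both ages, 268 ± 20.8 CPM (counts divided by the library total after TMM scaling, times 10 to the power of 6) in OE_20wk against 88.5 ± 5.37 CPM in Ctrl_20wk and 353 ± 77.9 CPM in OE_8wk against 89.7 ± 10.5 CPM in Ctrl_8wk (SD, n = 4 each, edgeR adjusted p = 0.000145 and 2.08e-05). The fat cell markers Adipoq, Plin1 and Fabp4 were present in every library, Adipoq at no less than 636 CPM. Of the 16 libraries, 3 stood apart in epididymal transcripts or in their place among the libraries of their age. Ctrl_8wk 4 and OE_8wk 2 held transcripts of the epididymal duct, 3680.0 and 2422 CPM summed over 8 markers, against at most 164 CPM elsewhere. OE_20wk 1 lay outside the range of the other 7 libraries of its age, toward 8 weeks, for 36 of the 54 genes. The same count was 19 for Ctrl_8wk 4 and 18 for OE_8wk 2, toward 20 weeks, and 10 for Ctrl_8wk 1. Outside the range in the other direction were 3 genes for OE_20wk 1, 10 for Ctrl_8wk 4, 3 for OE_8wk 2 and 4 for Ctrl_8wk 1. Such counts were not taken over all genes tested. Ctrl_8wk 1 moved with OE_8wk 1, with a correlation of 0.826 between their deviations from group means.

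The 54 genes together held 1.08% to 1.51% of the deposited TPM (transcripts scaled to a common total, a level per length) in each library. Aldoa, the main aldolase, had the highest TPM in every group, 1613 ± 115 in OE_20wk, 1498 ± 110.1 in Ctrl_20wk, 1544 ± 203 in OE_8wk and 1642 ± 373 in Ctrl_8wk. Gapdh, glyceraldehyde-3-phosphate dehydrogenase, Ldha, the A subunit of lactate dehydrogenase, and Tpi1, triosephosphate isomerase, followed in each group. Aldoc, the brain-type aldolase, had the lowest mean in every group, with 1.04 to 3.08 TPM in OE_20wk and 1.62 to 3.45 TPM in Ctrl_20wk against 0.941 to 5.73 TPM in OE_8wk and 0.985 to 5.75 TPM in Ctrl_8wk. Between 33 and 35 of the genes exceeded 100 TPM in each group and 3 to 5 were under 10 TPM. The muscle enolase Eno3 and the lactate exporter Slc16a3 were under 10 TPM on average in every group, and Hk3 was so at 8 weeks.

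The comparison of 20 with 8 weeks asked which steps differ between a long and a short time on high-fat diet in each genotype. With edgeR at an adjusted p under 0.05, 3 of the 54 genes rose and 8 fell in OE, and 5 rose and 16 fell in Ctrl. Over all genes tested, 13.1% rose and 9.91% fell in OE, and 19.6% rose and 21.3% fell in Ctrl. The members called were 20.4% in OE, where 23.0% of all genes were called, and 38.9% in Ctrl, where 40.9% were. At an unadjusted p under 0.05 there were 22 members in OE and 29 in Ctrl, against 36.8% and 50.2% of all genes. The 4 libraries at 20 weeks lay wholly above those at 8 weeks for 4 members in OE and 6 in Ctrl, against 12.9% and 18.5% of all genes, and wholly below for 5 and 12, against 9.50% and 14.8%. Over both directions the shares called are near the background, so the count itself says nothing particular about the pathway. Which genes moved, and how evenly, is described by segment.

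All 11 genes called in OE were called in Ctrl in the same direction, and they made up 52.4% of the 21 called in Ctrl. The hexokinase Hk3, the fructose 2,6-bisphosphate enzyme Pfkfb4 and the pyruvate kinase gene Pkm rose in both. Hk2, Pfkm, Pfkfb1, Ldhb, Pdha1, Suclg2, Fh1 and Mdh1 fell in both. In Ctrl, Gpi1 and Pdk1 rose and Pdhb, Dld, Pcx, Idh3g, Dlst, Suclg1, Taldo1 and Rpia fell as well, while 33 genes were called in neither genotype. None of these 10 differences between the genotypes passed as an interaction. The fold changes of the 54 genes in OE and Ctrl, which share no library, had a Pearson r of 0.955 and a Spearman rho of 0.867, against 0.810 and 0.856 over all 19189 genes. The sign was the same for 43 of the 54, or 79.6%, and for 85.5% of all genes.

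The counts depended on single libraries and on the model. In OE, 5 genes rose without OE_20wk 1 or without OE_8wk 1, and 5 fell without OE_20wk 4. In Ctrl, the 16 falls were 9 without Ctrl_20wk 3, 10 without Ctrl_8wk 2 or without Ctrl_8wk 3, and 27 without Ctrl_8wk 4. Without both libraries with epididymal transcripts, 5 rose and 16 fell in OE and 6 rose and 28 fell in Ctrl. With 2 surrogate variables, terms estimated from the expression values themselves and added to the model, 5 rose and 3 fell in OE and 4 rose and 1 fell in Ctrl. Calls that were kept under all 26 alternatives run were those of Hk3, Pfkfb4 and Ldhb in both genotypes, Pfkm and Pkm in OE, and Pdk1 in Ctrl.

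**Figure D1:**
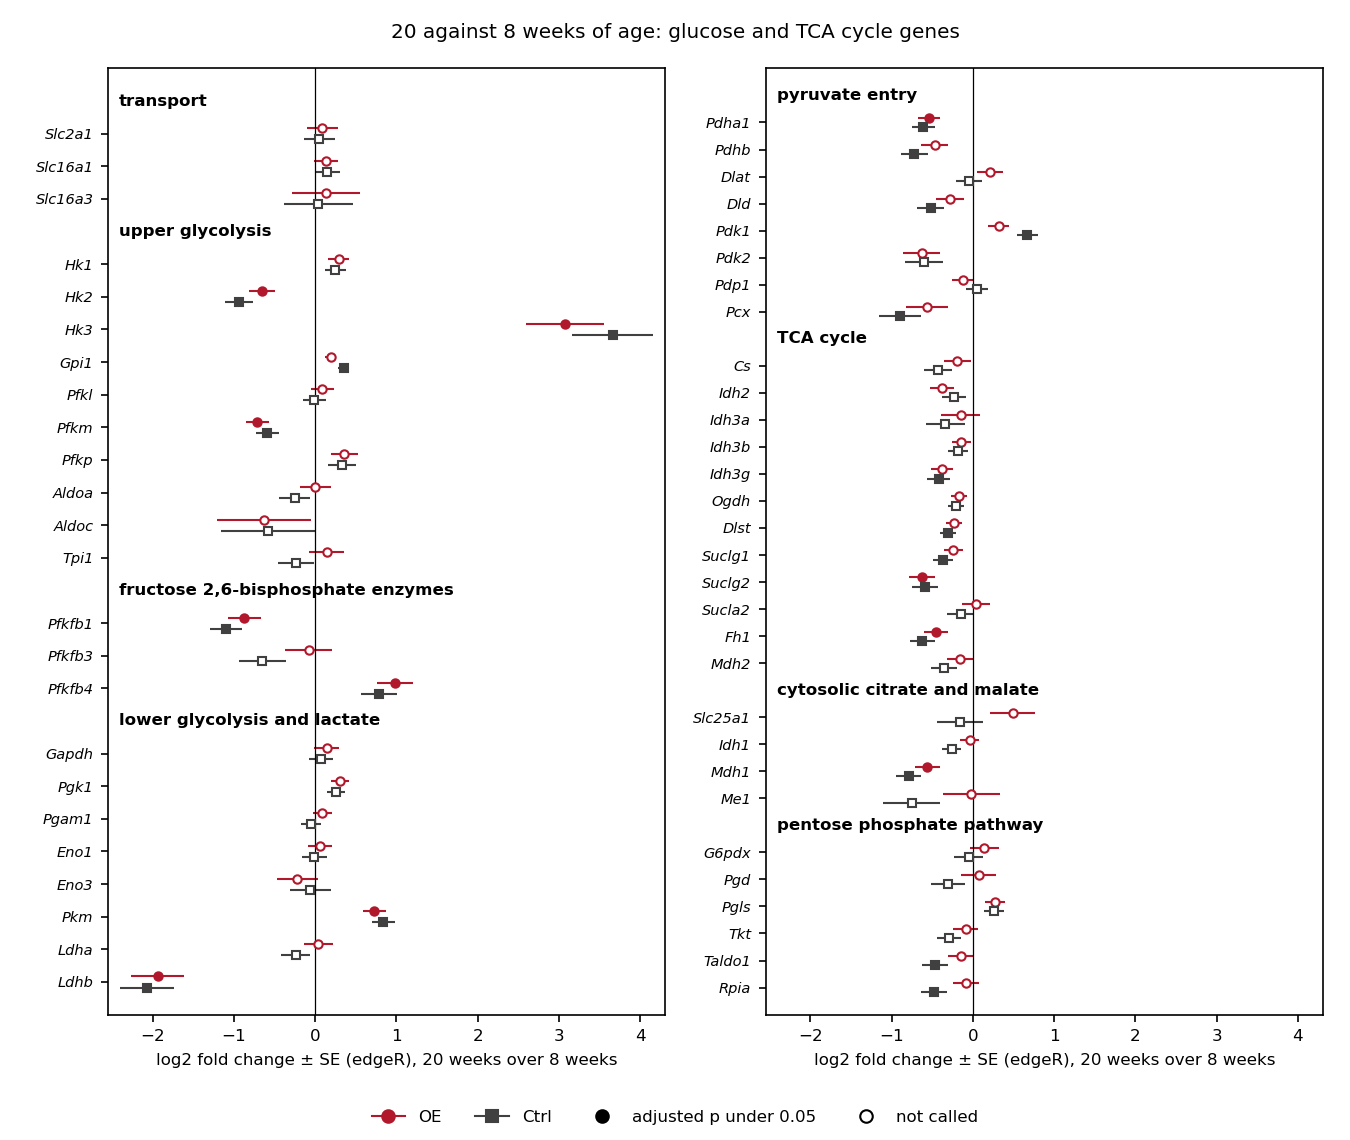
Log2 fold change (± SE, edgeR) of the 54 genes at 20 weeks over 8 weeks, by pathway segment, in OE (circles) and Ctrl (squares); filled symbols were called at an adjusted p under 0.05. Hk3 lies farthest to the right, at 3.08 in OE and 3.66 in Ctrl, Ldhb farthest to the left, at −1.94 and −2.07, and all 12 TCA cycle genes lie left of 0 in Ctrl.

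Cell type markers moved with age in the same libraries. All 10 macrophage markers rose in both genotypes, and their summed level was 3641 to 8507 CPM in OE_20wk and 5410.3 to 8757 CPM in Ctrl_20wk against 1780.4 to 3171 CPM in OE_8wk and 1421 to 2501 CPM in Ctrl_8wk. All 6 markers of lipid-associated macrophages rose too, to a sum of 1548 to 5499 CPM in OE_20wk and 2328 to 5079 CPM in Ctrl_20wk against 103 to 659.5 CPM in OE_8wk and 103 to 161 CPM in Ctrl_8wk. Of 10 mature adipocyte markers, 6 fell and 0 rose in each genotype, but in OE 3 fell without OE_20wk 2 or 3 and 2 without OE_20wk 4 or OE_8wk 3. Their sums were 17552 to 27247 CPM in OE_20wk and 13923 to 21427 CPM in Ctrl_20wk against 20627 to 39443 CPM in OE_8wk and 25297 to 32567 CPM in Ctrl_8wk. The macrophage sums of the 2 ages do not overlap within a genotype, while the adipocyte sums overlap in OE and do not in Ctrl. All 5 proliferation markers rose in both genotypes, and all 5 erythroid markers fell. Of 5 smooth muscle markers, 4 fell in each genotype. Their sums were 203 to 405 CPM in OE_20wk and 143 to 239.9 CPM in Ctrl_20wk. At 8 weeks they were 491 to 3497 CPM in OE_8wk and 553 to 3605 CPM in Ctrl_8wk, highest in OE_8wk 2 and Ctrl_8wk 4. The part of these cell types in the results on the pathway was not tested. In bulk tissue, fewer cells of a type and less RNA per cell cannot be told apart.

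Glucose and lactate transport held 3 of the 54 genes, of which 0 were called. Slc2a1, the widely expressed glucose transporter GLUT1, Slc16a1, the monocarboxylate carrier MCT1, and Slc16a3, the carrier MCT4 that exports lactate, were not called in either genotype, with log2 fold changes of 0.09 to 0.13 in OE and 0.04 to 0.15 in Ctrl. Slc16a1 had 74.0, 78.0, 77.4 and 69.7 CPM in OE_20wk libraries 1 to 4 against 77.8, 58.7, 74.7 and 62.4 CPM in OE_8wk. In Ctrl it had 88.2, 66.9, 75.5 and 111 CPM at 20 weeks against 89.3, 64.4, 76.7 and 76.8 CPM at 8 weeks. The ages overlap in both genotypes.

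In upper glycolysis the 3 hexokinases, which trap glucose in the cell as glucose 6-phosphate, went different ways. Hk3 (gene ID 212032, mm10 chromosome 13, 55005985 to 55021475), the isoform typical of myeloid cells, had 55.7, 141, 101 and 171 CPM in OE_20wk libraries 1 to 4 against 10.9, 25.9, 7.07 and 11.3 CPM in OE_8wk. In Ctrl it had 79.1, 167, 146 and 95.9 CPM at 20 weeks against 16.1, 4.90, 6.83 and 10.9 CPM at 8 weeks. Every 20-week library lay above every 8-week one, and the lowest 20-week value is that of OE_20wk 1. Hk3 rose 8.47-fold in OE (log2 fold change 3.08 ± 0.48 SE, edgeR adjusted p = 0.000847) and 12.6-fold in Ctrl (3.66 ± 0.50, adjusted p = 0.000131). Across the 26 alternatives the log2 values ran from 2.23 to 3.89 in OE and from 2.21 to 4.38 in Ctrl.

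Hk2 (gene ID 15277, chromosome 6, 82725025 to 82774454), the insulin-responsive hexokinase of muscle and fat, fell. It had 107, 103, 82.8 and 68.6 CPM in OE_20wk against 141, 116, 161 and 148 CPM in OE_8wk. Ctrl libraries had 82.5, 65.8, 57.8 and 93.8 CPM at 20 weeks against 142, 162, 133 and 136 CPM at 8 weeks. No 20-week value reached the 8-week values in either genotype. Its log2 fold change was −0.65 ± 0.16 in OE (adjusted p = 0.0120) and −0.94 ± 0.17 in Ctrl (adjusted p = 0.000725), and both calls were lost with 2 surrogate variables, at adjusted p of up to 0.0893. Hk1, the widely expressed isoform, was not called in OE (0.29 ± 0.13, adjusted p = 0.126) or Ctrl (0.25 ± 0.13, adjusted p = 0.142).

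As shares of the summed hexokinase TPM, Hk3 held 50.3% ± 12.8 in OE_20wk and 53.8% ± 9.31 in Ctrl_20wk against 9.73% ± 5.47 in OE_8wk and 6.79% ± 3.31 in Ctrl_8wk (SD, n = 4 each). The shares of the 2 ages do not overlap. Hk2 held 25.1% ± 9.37 in OE_20wk and 20.9% ± 7.43 in Ctrl_20wk against 59.2% ± 9.18 in OE_8wk and 59.9% ± 5.82 in Ctrl_8wk. Hk1 held 24.7% and 25.3% in OE_20wk and Ctrl_20wk against 31.1% and 33.3% in OE_8wk and Ctrl_8wk. The leading hexokinase message was thus Hk2 in all 8 libraries at 8 weeks and Hk3 in all but OE_20wk 1 at 20 weeks. Summed hexokinase TPM averaged 148 ± 32.4 in OE_20wk and 149 ± 27.0 in Ctrl_20wk against 90.1 ± 11.7 in OE_8wk and 89.0 ± 11.9 in Ctrl_8wk.

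Set against the marker lists, a ratio chosen after the values were seen, Hk3 had 15.3 to 21.7 CPM per 1000 CPM of the macrophage list in OE_20wk and 9.55 to 21.1 in Ctrl_20wk, against 3.97 to 8.17 in OE_8wk and 3.45 to 6.63 in Ctrl_8wk. The ages do not overlap by this ratio either. No ratio was taken to the lipid-associated macrophage list. The median log2 fold change of that list was 3.84 in OE and 4.79 in Ctrl, beside 3.08 and 3.66 for Hk3. The part of such cells in the Hk3 values was not tested. Hk2 had 3.70 to 5.03 CPM per 1000 CPM of the mature adipocyte list in OE_20wk and 4.08 to 4.38 in Ctrl_20wk, against 4.08 to 5.61 in OE_8wk and 4.38 to 5.38 in Ctrl_8wk. By that ratio the ages overlap in OE, and in Ctrl the highest 20-week ratio and the lowest 8-week ratio both read 4.38. The mature adipocyte markers moved unevenly, with log2 fold changes of −3.90 to 0.28 in OE and −4.34 to 0.23 in Ctrl. Ratios to their sum, here and below, therefore depend on which markers weigh most in it.

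**Figure D2:**
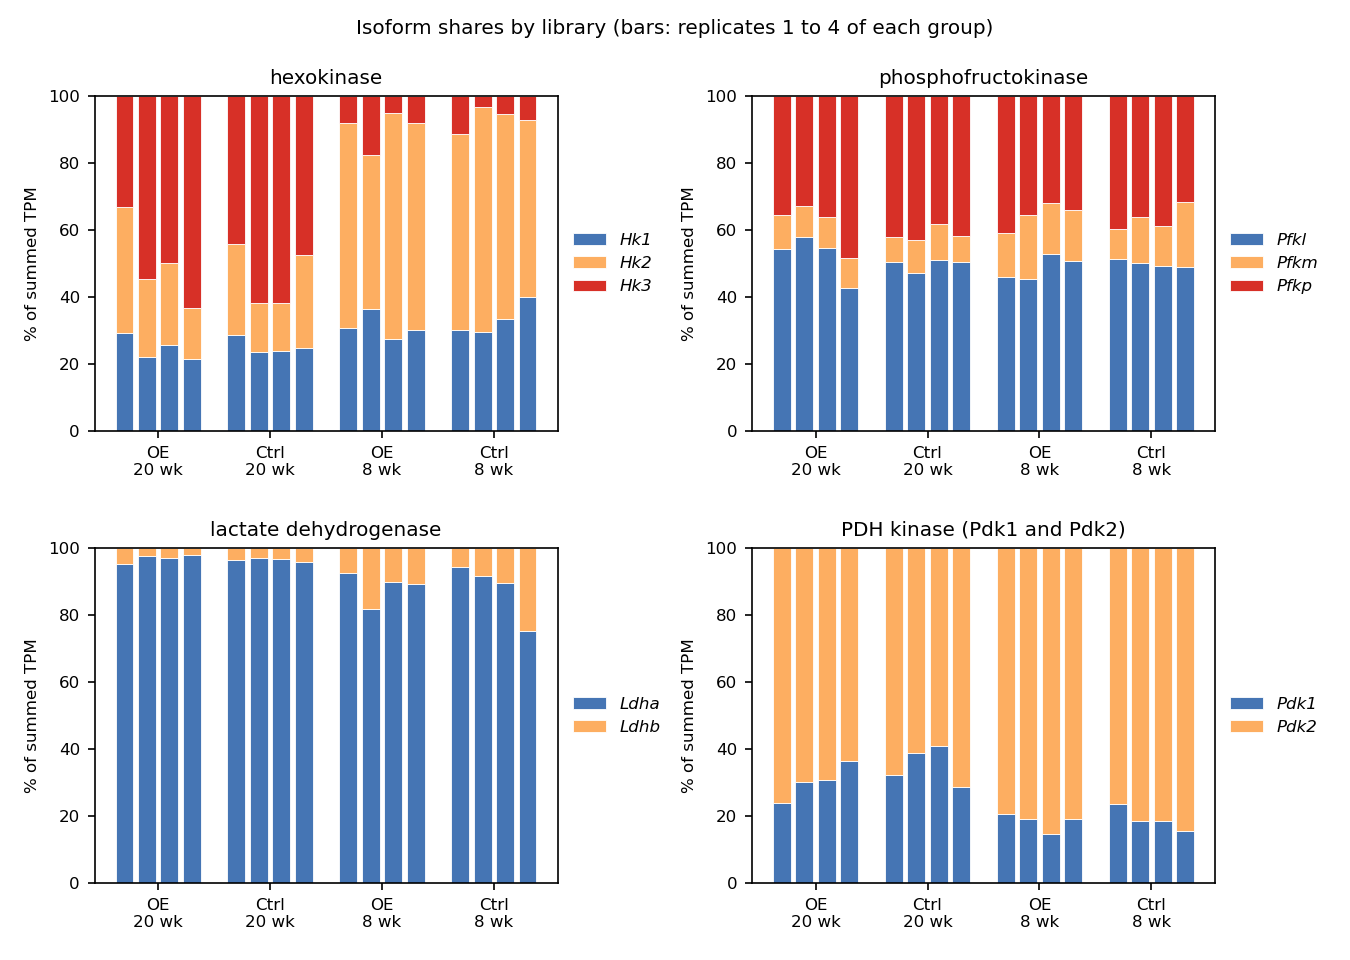
Share of summed TPM (%) held by each isoform of hexokinase, phosphofructokinase, lactate dehydrogenase and the PDH kinase pair Pdk1 and Pdk2, with 1 bar per library in OE and Ctrl at 20 weeks and OE and Ctrl at 8 weeks. Hk3 averages 50.3% and 53.8% in the 20-week groups against 9.73% and 6.79% in the 8-week groups, and Ldhb 3.03% and 3.40% against 11.6% and 12.3%.

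Of the 3 phosphofructokinases, which commit fructose 6-phosphate to glycolysis, the muscle form Pfkm (gene ID 18642, chromosome 15, 98092589 to 98132447) fell. It had 20.1, 15.5, 18.4 and 14.9 CPM in OE_20wk against 25.1, 30.4, 29.4 and 28.0 CPM in OE_8wk. Ctrl libraries had 14.9, 18.3, 18.1 and 17.4 CPM at 20 weeks against 18.8, 27.2, 26.2 and 31.5 CPM at 8 weeks. Within each genotype the ages do not overlap, while OE_20wk 1 lies above Ctrl_8wk 1. The log2 fold change was −0.71 ± 0.14 in OE (adjusted p = 0.00301) and −0.59 ± 0.14 in Ctrl (adjusted p = 0.00476), and the Ctrl call was lost with 2 surrogate variables. The liver form Pfkl and the platelet form Pfkp were not called, at 0.09 and 0.36 in OE and −0.01 and 0.33 in Ctrl. Pfkm was the smallest of the 3 in TPM, 9.33% and 8.92% of the sum at 20 weeks against 15.6% and 13.6% at 8 weeks in OE and Ctrl, and the summed level was 136 and 147 TPM against 130.0 and 138 TPM.

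Gpi1, glucose 6-phosphate isomerase, rose by 0.35 ± 0.07 in Ctrl (adjusted p = 0.00276) and was not called in OE (0.19 ± 0.07, adjusted p = 0.0871). The Ctrl call was lost with 2 surrogate variables, at an adjusted p of 0.169. The other 3 genes of the segment, Aldoa, Aldoc and Tpi1, were not called in either genotype. Aldoa held 99.8% to 99.9% of aldolase TPM in every group.

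The bifunctional enzymes of the Pfkfb family make and break down fructose 2,6-bisphosphate, the allosteric activator of phosphofructokinase, and they split in 3 ways. Pfkfb4 (gene ID 270198, chromosome 9, 108988272 to 109032236) rose. It had 70.0, 71.5, 73.7 and 57.6 CPM in OE_20wk against 46.6, 29.3, 28.8 and 34.0 CPM in OE_8wk, and in Ctrl 57.9, 79.1, 74.0 and 63.4 CPM at 20 weeks against 53.4, 43.0, 39.4 and 22.9 CPM at 8 weeks. Values at 20 weeks lay above those at 8 weeks throughout. Its log2 fold change was 0.98 ± 0.22 in OE (adjusted p = 0.00585) and 0.79 ± 0.22 in Ctrl (adjusted p = 0.0110).

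Pfkfb1 (gene ID 18639, chromosome X, 150587445 to 150643878), the liver and muscle enzyme, fell. It had 25.9, 18.5, 19.0 and 13.8 CPM in OE_20wk against 32.3, 28.1, 47.5 and 33.6 CPM in OE_8wk, and in Ctrl 15.9, 17.1, 14.7 and 18.7 CPM at 20 weeks against 27.8, 43.6, 33.7 and 37.1 CPM at 8 weeks. The groups are apart, and OE_20wk 1 is the highest of the 20-week libraries. The log2 fold change was −0.87 ± 0.20 in OE (adjusted p = 0.00598) and −1.10 ± 0.20 in Ctrl (adjusted p = 0.000768), and both calls were lost with 2 surrogate variables. Pfkfb3, the inducible form and the most abundant of the 3 in TPM, was not called (−0.08 ± 0.29 in OE and −0.65 ± 0.29 in Ctrl, adjusted p = 0.876 and 0.0915). It averaged 355 ± 107 TPM in OE_20wk and 271 ± 68.1 TPM in Ctrl_20wk against 357 ± 91.1 TPM in OE_8wk and 391 ± 83.7 TPM in Ctrl_8wk.

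In lower glycolysis, 6 of 8 genes were not called in either genotype. These were Gapdh, the phosphoglycerate kinase Pgk1, the mutase Pgam1, the enolases Eno1 and Eno3, and Ldha, with log2 fold changes of −0.22 to 0.31 in OE and −0.24 to 0.26 in Ctrl. Counting may have been split with gene copies for Pgam1, since the pseudogenes Pgam1-ps1 and Pgam1-ps2 held reads equal to 28.3% of its own, and Eno1b held 3.45% of those of Eno1. Of enolase TPM, Eno1 held 98.4% to 98.9% on average in every group. Pkm (gene ID 18746, chromosome 9, 59656576 to 59679372), the pyruvate kinase gene whose M1 and M2 forms the table does not separate, rose. It had 529.6, 673, 553 and 762 CPM in OE_20wk against 393, 410.1, 327 and 387 CPM in OE_8wk, and in Ctrl 576, 753, 727 and 598 CPM at 20 weeks against 394, 388, 399 and 303 CPM at 8 weeks. Again all 8 libraries at 20 weeks were above all 8 at 8 weeks. The log2 fold change was 0.73 ± 0.14 in OE (adjusted p = 0.00244) and 0.84 ± 0.14 in Ctrl (adjusted p = 0.000494), and with 2 surrogate variables the Ctrl call was lost at an adjusted p of 0.0735. Per 1000 CPM of the macrophage list Pkm had 79.1 to 145 CPM in OE_20wk and 69.6 to 111 in Ctrl_20wk against 129 to 203 in OE_8wk and 158 to 273 in Ctrl_8wk, so that the ratios were lower at 20 weeks without overlap in Ctrl and overlapped in OE, unlike those of Hk3.

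Ldhb (gene ID 16832, chromosome 6, 142490249 to 142507957), the lactate dehydrogenase subunit that favours oxidation of lactate to pyruvate, fell more than any other of the 54 genes. It had 29.8, 14.8, 18.6 and 12.0 CPM in OE_20wk against 56.0, 93.7, 70.1 and 67.7 CPM in OE_8wk. In Ctrl it had 19.8, 15.9, 16.0 and 25.1 CPM at 20 weeks against 45.9, 62.7, 80.4 and 133 CPM at 8 weeks. The ages do not overlap, and the 2 highest values are those of Ctrl_8wk 4 and OE_8wk 2, the libraries with epididymal transcripts. It was 3.83-fold lower in OE (log2 fold change −1.94 ± 0.33, adjusted p = 0.00133) and 4.20-fold lower in Ctrl (−2.07 ± 0.33, adjusted p = 0.000382). Across the 26 alternatives, which include the fits without those libraries, the log2 values ran from −2.24 to −1.51 in OE and from −2.26 to −1.40 in Ctrl, and all were called. Ldhb held 3.03% ± 1.16 of the summed lactate dehydrogenase TPM in OE_20wk and 3.40% ± 0.485 in Ctrl_20wk, against 11.6% ± 4.57 in OE_8wk and 12.3% ± 8.55 in Ctrl_8wk. Per 1000 CPM of the mature adipocyte list it had 0.685 to 1.09 CPM in OE_20wk and 0.984 to 1.17 in Ctrl_20wk against 1.63 to 4.54 in OE_8wk and 1.41 to 5.25 in Ctrl_8wk, again without overlap. No ratio was taken to the smooth muscle list, whose median log2 fold change was −2.34 in OE and −2.88 in Ctrl. The part of smooth muscle in the Ldhb values was not tested.

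**Figure D3:**
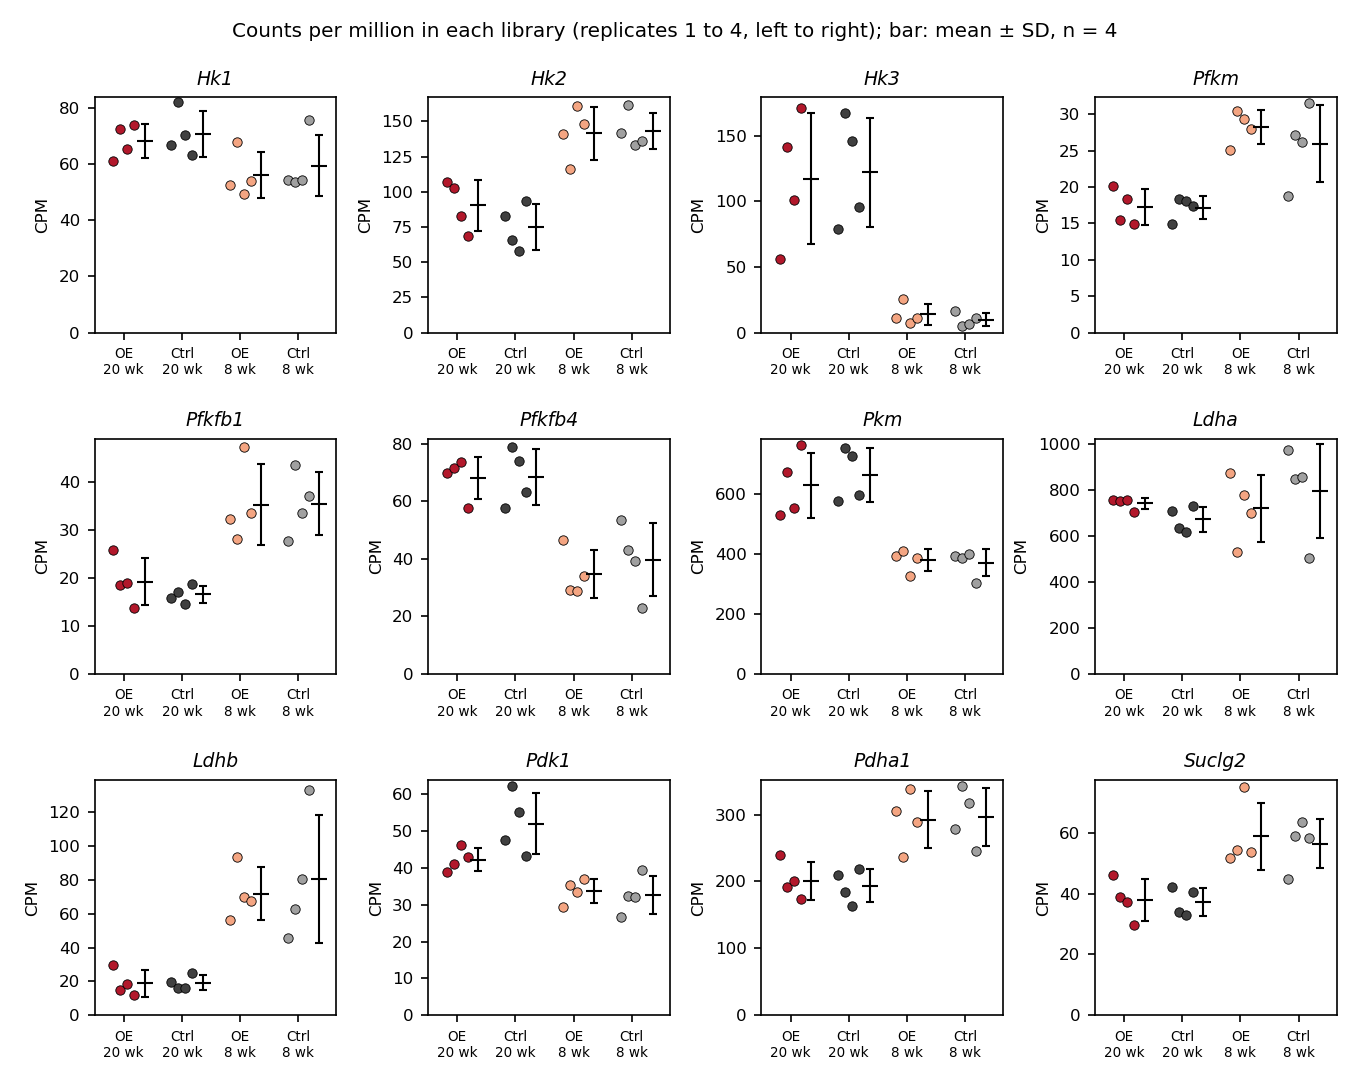
CPM of 12 of the genes in every library, in the order OE 20 weeks, Ctrl 20 weeks, OE 8 weeks and Ctrl 8 weeks, with the mean ± SD (n = 4) beside the 4 points of each group. Hk3, Pfkfb4 and Pkm are higher and Hk2, Pfkm, Pfkfb1 and Ldhb lower at 20 weeks with no overlap between the ages within a genotype, while Hk1 and Ldha overlap.

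Because isoforms of 1 step moved apart, the promoters of Hk2 and Hk3 and of Ldha and Ldhb are shown, from 250 bases before to 50 bases after the annotated start. Capitals mark ACGTG and GCGTG on either strand, the core of the element that hypoxia-inducible factors bind. The sequences are from RefSeq on GRCm38.p6, 5′ to 3′ along the gene: Hk2 at chr6:82774405-82774704 on the minus strand, Hk3 at chr13:55021336-55021635 on the minus strand, the upstream Ldha start at chr7:46845554-46845853 on the plus strand and Ldhb at chr6:142507908-142508207 on the minus strand.
Hk2: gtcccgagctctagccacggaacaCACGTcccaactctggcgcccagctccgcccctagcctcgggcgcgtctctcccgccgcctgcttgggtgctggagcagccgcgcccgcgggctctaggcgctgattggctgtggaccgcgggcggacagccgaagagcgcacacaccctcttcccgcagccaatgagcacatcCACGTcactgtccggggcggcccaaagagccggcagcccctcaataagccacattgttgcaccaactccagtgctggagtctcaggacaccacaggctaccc
Hk3: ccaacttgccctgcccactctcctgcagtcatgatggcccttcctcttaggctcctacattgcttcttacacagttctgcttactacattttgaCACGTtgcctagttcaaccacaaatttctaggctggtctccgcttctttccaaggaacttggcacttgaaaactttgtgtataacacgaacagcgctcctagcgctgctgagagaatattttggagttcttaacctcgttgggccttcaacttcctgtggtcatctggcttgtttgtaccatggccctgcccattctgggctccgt
Ldha: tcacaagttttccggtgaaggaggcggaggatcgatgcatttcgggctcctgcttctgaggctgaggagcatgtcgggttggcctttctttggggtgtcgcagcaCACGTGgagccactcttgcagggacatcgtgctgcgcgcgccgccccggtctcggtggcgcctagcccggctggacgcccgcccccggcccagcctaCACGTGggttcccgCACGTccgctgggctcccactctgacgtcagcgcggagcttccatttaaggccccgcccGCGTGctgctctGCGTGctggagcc
Ldhb: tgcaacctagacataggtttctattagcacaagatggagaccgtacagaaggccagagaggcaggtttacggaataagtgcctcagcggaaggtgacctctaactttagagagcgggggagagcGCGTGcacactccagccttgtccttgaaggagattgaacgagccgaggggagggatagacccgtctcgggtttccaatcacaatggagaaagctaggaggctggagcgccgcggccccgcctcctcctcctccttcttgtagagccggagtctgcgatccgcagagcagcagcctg
The Ldha window shown held ACGTG in 5 matches, of which 4 fall on the 2 palindromic CACGTG E-boxes, and GCGTG in 2. The window of the downstream Ldha start, chr7:46846832-46847131, is not shown and held 0 ACGTG and 2 GCGTG. Hk2 held 2 ACGTG, Hk3 held 1, and Ldhb held 1 GCGTG and no ACGTG. RefSeq windows were found for 52 of the 54 genes, all but Pdp1 and Idh3a. At least 1 window held ACGTG in 46.2% of them against 21.8% of all 27025 genes with a window, and GCGTG in 63.5% against 35.2%. CACGTG, which contains ACGTG, was held by 15.4% against 8.09%, and TATAAA by 3.85% against 15.7%, both strands being searched for each motif. Genes can have more than 1 window, and there were 78 for the members and 32851 for all genes. Per window the shares were 41.0% against 19.6% for ACGTG and 53.8% against 32.4% for GCGTG. For CACGTG they were 12.8% against 7.15%, and for TATAAA 2.56% against 13.6%. Pathway promoters also differ in base composition, from 49.0% G and C in Hk3 to 67.3% in Hk2 and Ldha among those shown. Base composition was not compared between the members and all genes with a window. The latter include genes that did not pass the filter on low counts, while all members passed it. What lies behind the differences in share was not tested. A match is a description of letters, not a bound site.

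Inside mitochondria, the pyruvate dehydrogenase complex turns pyruvate into acetyl-CoA, and pyruvate carboxylase, Pcx, turns it into oxaloacetate. The segment named pyruvate entry held 8 genes, of which 1 fell and 0 rose in OE, and 4 fell and 1 rose in Ctrl. Over all genes tested, 9.91% fell and 13.1% rose in OE, and 21.3% fell and 19.6% rose in Ctrl. Pdha1 (gene ID 18597, chromosome X, 160122219 to 160138430), the catalytic subunit of the complex, had 239, 191, 200.3 and 173 CPM in OE_20wk against 305, 236, 338 and 289.6 CPM in OE_8wk. The Ctrl values were 209, 184, 164 and 218 CPM at 20 weeks against 279, 343, 317 and 245 CPM at 8 weeks. The ages overlap in OE, where OE_20wk 1 lies above OE_8wk 2, and do not in Ctrl. Its log2 fold change was −0.54 ± 0.14 in OE (adjusted p = 0.0133, but 0.0514 without OE_20wk 4) and −0.61 ± 0.14 in Ctrl (adjusted p = 0.00413, lost with 2 surrogate variables at 0.301). Per 1000 CPM of the mature adipocyte list Pdha1 had 8.77 to 9.88 CPM in OE_20wk and 10.2 to 11.8 in Ctrl_20wk against 8.58 to 11.5 in OE_8wk and 8.58 to 10.5 in Ctrl_8wk, so these ratios overlap.

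Pdhb, the other subunit of the same enzyme, and Dld, the dihydrolipoamide dehydrogenase that also serves the 2-oxoglutarate dehydrogenase, fell in Ctrl by 0.72 and 0.52 on the log2 scale (adjusted p = 0.00527 and 0.0253). Both calls were lost with 2 surrogate variables. That of Dld was lost in 6 of 26 alternatives, among them the fits without Ctrl_20wk 2 or 3 or Ctrl_8wk 2 or 3. Pcx had 719, 626, 518 and 922 CPM in Ctrl_20wk against 1487, 1520.1, 1292 and 897 CPM in Ctrl_8wk. Only Ctrl_8wk 4 lies among the 20-week values. The log2 fold change was −0.90 ± 0.26 (adjusted p = 0.0152), and the call was lost without Ctrl_20wk 3 and with 2 surrogate variables. In OE, Pcx was not called (−0.56 ± 0.26, adjusted p = 0.137), with 1111, 795, 883 and 520.2 CPM at 20 weeks against 1289, 819, 1622 and 1134 CPM at 8 weeks. Dlat, the acetyltransferase of the complex, was not called in either genotype, at 0.21 ± 0.16 in OE and −0.05 ± 0.16 in Ctrl.

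Pdk1 (gene ID 228026, chromosome 2, 71873215 to 71903858), a kinase that switches the complex off, rose in Ctrl. It had 47.6, 62.2, 55.1 and 43.3 CPM in Ctrl_20wk against 26.6, 32.5, 32.0 and 39.4 CPM in Ctrl_8wk, and in OE 38.8, 41.0, 46.2 and 43.0 CPM at 20 weeks against 29.4, 35.3, 33.4 and 36.9 CPM at 8 weeks. The ages do not overlap in either genotype. The log2 fold change was 0.67 ± 0.13 in Ctrl (adjusted p = 0.00114, called in all 26 alternatives) and 0.32 ± 0.13 in OE (adjusted p = 0.0796). Pdk2, the more abundant kinase of this pair, was not called, at −0.63 ± 0.23 in OE and −0.60 ± 0.23 in Ctrl (adjusted p = 0.0670 and 0.0540). It had 53.4, 41.3, 44.9 and 32.6 CPM in OE_20wk against 49.2, 64.7, 84.8 and 67.3 CPM in OE_8wk, and 43.7, 42.5, 34.6 and 46.9 CPM in Ctrl_20wk against 37.5, 62.6, 60.5 and 92.9 CPM in Ctrl_8wk. In both genotypes the ages overlap. Of the summed TPM of Pdk1 and Pdk2, Pdk1 held 30.4% ± 5.10 in OE_20wk and 35.3% ± 5.72 in Ctrl_20wk against 18.4% ± 2.59 in OE_8wk and 19.1% ± 3.38 in Ctrl_8wk. The phosphatase gene Pdp1, which switches the complex on, was not called (−0.12 and 0.05).

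In the TCA cycle, 2 of 12 genes fell in OE and 5 of 12 in Ctrl, and 0 rose in either. Over all genes tested, 9.91% fell in OE and 21.3% in Ctrl. The share called in either direction was 16.7% in OE and 41.7% in Ctrl, near the 23.0% and 40.9% of all genes. The median log2 fold change was −0.21 in OE and −0.35 in Ctrl, against −0.03 and −0.05 over all genes. The sign was negative for 11 of 12 genes in OE and 12 of 12 in Ctrl. Over all genes it was positive for 46.9% in OE and 46.4% in Ctrl. With 2 surrogate variables 0 were called in either genotype and the sign was negative for 7 and 5 of 12. Without Ctrl_8wk 4 and OE_8wk 2, 6 fell in OE and 9 in Ctrl. The differences are small: only Suclg2 in OE, and Suclg2 and Fh1 in Ctrl, exceeded 1.5-fold.

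Suclg2 (gene ID 20917, chromosome 6, 95473009 to 95718858), the GTP-forming subunit of succinyl-CoA ligase, had 46.1, 38.7, 37.1 and 29.5 CPM in OE_20wk against 51.8, 54.3, 75.1 and 53.8 CPM in OE_8wk. Ctrl libraries had 42.0, 33.8, 33.0 and 40.6 CPM at 20 weeks against 44.7, 58.9, 63.5 and 58.3 CPM at 8 weeks. All 20-week values lie under the 8-week values of their genotype. It fell by 0.63 ± 0.16 in OE and 0.59 ± 0.16 in Ctrl on the log2 scale (adjusted p = 0.0102 and 0.00881). Sucla2, the ATP-forming partner, was not called (0.04 ± 0.17 and −0.15 ± 0.17), and the shared subunit Suclg1 was called in Ctrl and not in OE (−0.37 ± 0.12, adjusted p = 0.0216). That call was lost in 6 of 26 alternatives, among them the fits without Ctrl_20wk 2 or 3 or Ctrl_8wk 2 or 3. The Suclg2 calls were lost with 2 surrogate variables alone.

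Fh1 (gene ID 14194, chromosome 1, 175601378 to 175625635), fumarate hydratase, had 97.2, 82.5, 83.0 and 62.8 CPM in OE_20wk against 122, 90.9, 127 and 106 CPM in OE_8wk, and in Ctrl 79.0, 69.6, 64.9 and 79.4 CPM at 20 weeks against 110.5, 131, 122 and 85.8 CPM at 8 weeks. The ages overlap in OE and do not in Ctrl. In Ctrl the log2 fold change was −0.62 ± 0.15 (adjusted p = 0.00633). In OE the value was −0.45 ± 0.15 with an adjusted p of 0.0446, close to the threshold, and the call was lost in 17 of 26 alternatives, 12 of them fits that leave out 1 library. Those were any of the 4 Ctrl_20wk libraries, OE_20wk 2, 3 or 4, Ctrl_8wk 1 or 3, and OE_8wk 1, 3 or 4. The oxoglutarate dehydrogenase subunit Dlst and the isocitrate dehydrogenase subunit Idh3g fell in Ctrl (−0.31 ± 0.10 and −0.42 ± 0.14, adjusted p = 0.0218 and 0.0277). The first was lost in 5 and the second in 7 of 26 alternatives, both of them without Ctrl_20wk 1 or 3 or Ctrl_8wk 2 or 3, and Idh3g also without Ctrl_20wk 2. Cs, the citrate synthase that opens the cycle, Idh2, Idh3a, Idh3b, Ogdh and Mdh2 were not called in either genotype, with values of −0.14 to −0.38 in OE and −0.18 to −0.43 in Ctrl.

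Of the 4 genes of cytosolic citrate and malate, Mdh1 was the one called. Mdh1 (gene ID 17449, chromosome 11, 21556692 to 21571934), the cytosolic malate dehydrogenase, had 430.1, 339.8, 349.7 and 279.8 CPM in OE_20wk against 526, 416, 593 and 529 CPM in OE_8wk, and in Ctrl 337, 309, 261 and 341 CPM at 20 weeks against 488, 629, 591 and 455 CPM at 8 weeks. The ages overlap in OE, by OE_20wk 1 and OE_8wk 2, and do not in Ctrl. The log2 fold change was −0.56 ± 0.15 in OE (adjusted p = 0.0164) and −0.79 ± 0.15 in Ctrl (adjusted p = 0.00123). The OE call was lost in 4 of 26 alternatives, among them those without OE_20wk 4, without OE_8wk 3 and with 2 surrogate variables, at an adjusted p of up to 0.0598. The Ctrl call was lost with 2 surrogate variables alone. Slc25a1, the mitochondrial citrate exporter, Idh1, the cytosolic isocitrate dehydrogenase, and Me1, the malic enzyme, were not called, at 0.49, −0.04 and −0.02 in OE and −0.16, −0.26 and −0.75 in Ctrl.

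In the pentose phosphate pathway, 0 of 6 genes were called in OE, and 2 fell in Ctrl. Over all genes tested, 23.0% were called in OE, and 21.3% fell in Ctrl. Neither oxidative dehydrogenase was called, with 0.14 ± 0.18 and −0.05 ± 0.18 for G6pdx, the entry enzyme, and 0.07 ± 0.21 and −0.31 ± 0.21 for Pgd in OE and Ctrl. Rpia (gene ID 19895, chromosome 6, 70765720 to 70792175), ribose 5-phosphate isomerase, had 26.4, 18.7, 20.4 and 24.1 CPM in Ctrl_20wk against 35.9, 33.5, 34.2 and 21.7 CPM in Ctrl_8wk. Only Ctrl_8wk 4 lies among the 20-week values, and the log2 fold change was −0.48 ± 0.16 (adjusted p = 0.0254). In OE its 27.0, 24.0, 21.5 and 23.6 CPM at 20 weeks overlapped with 31.1, 23.4, 23.5 and 23.8 CPM at 8 weeks (−0.08 ± 0.16). The transaldolase Taldo1 fell by 0.46 ± 0.16 on the log2 scale in Ctrl (adjusted p = 0.0364). The calls of Rpia and Taldo1 were lost in 7 and 10 of 26 alternatives, both without Ctrl_20wk 2 or 3 and without Ctrl_8wk 1, 2 or 3, and Taldo1 also without Ctrl_20wk 1. The lactonase gene Pgls was not called, at 0.27 ± 0.12 in OE and 0.26 ± 0.12 in Ctrl. Its values were 47.4, 53.9, 54.7 and 54.7 CPM in OE_20wk against 44.9, 38.4, 49.7 and 42.2 CPM in OE_8wk, with overlap. The transketolase Tkt was not called either (−0.09 and −0.29).

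**Figure D4:**
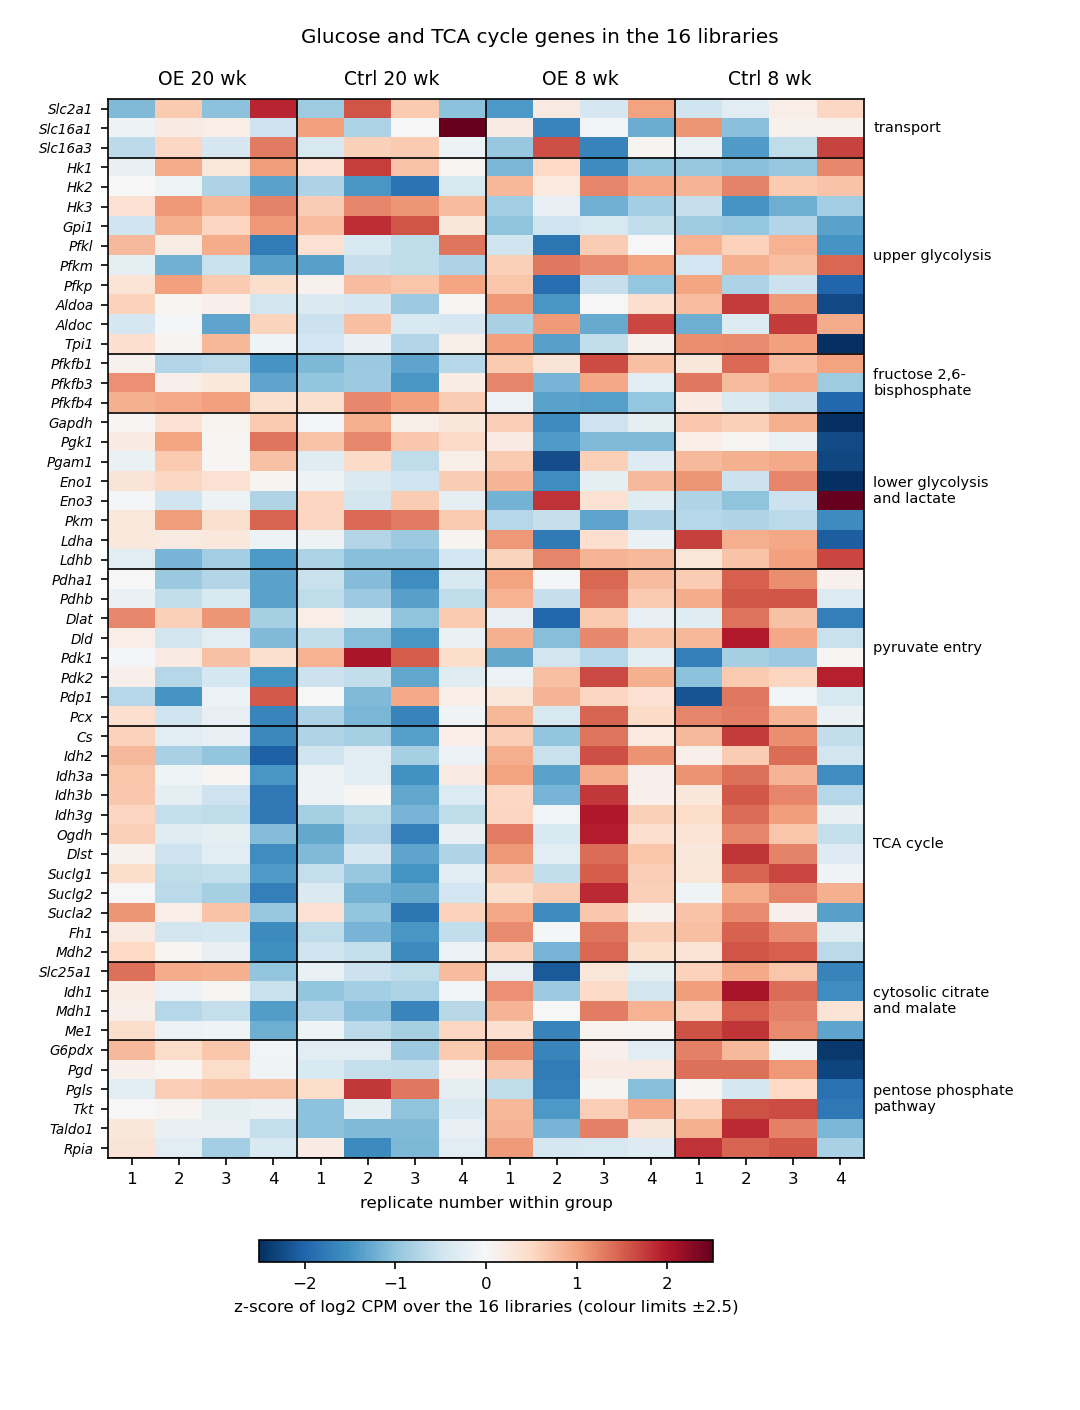
Level of each of the 54 genes (rows, by segment) in each of the 16 libraries (columns, OE and Ctrl at 20 weeks, then OE and Ctrl at 8 weeks) as a z-score of log2 CPM over all libraries. The pyruvate entry and TCA cycle rows are mostly blue in the 20-week columns, except OE_20wk 1. That library lies outside its age's range toward 8 weeks for 36 of the 54 genes. Ctrl_8wk 4 and OE_8wk 2 differ from the other 8-week columns in many rows. These include pyruvate entry and TCA cycle rows as well as glycolytic and pentose phosphate rows.

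Another 43 genes of the same pathways or tied to them were read beside the 54. Their list was made with earlier results of these data known. In OE 3 rose and 12 fell, and in Ctrl 3 rose and 27 fell, with median log2 fold changes of −0.36 and −0.61. Over all genes tested, 13.1% rose and 9.91% fell in OE and 19.6% rose and 21.3% fell in Ctrl, with medians of −0.03 and −0.05. The falls in Ctrl include genes that were low at 20 weeks and uneven between libraries at 8 weeks. Among them are Pgam2, Pklr, Fbp1 and Fbp2, for which no fold is given. In Ctrl_20wk each had at most 1.55 CPM. The Ctrl_8wk libraries ran from 0 to 4.41 CPM for Pgam2, 0 to 11.7 for Pklr, 0 to 18.1 for Fbp1 and 0.797 to 13.0 for Fbp2. The falls in OE were 7 without OE_20wk 2 or without OE_8wk 3 and 6 without OE_20wk 4. In Ctrl they were 16 without Ctrl_20wk 2, 15 without Ctrl_20wk 3 and 2 with 2 surrogate variables.

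The rises were those of Eno2, the neuronal enolase, Pdk4, the fasting-induced kinase of pyruvate dehydrogenase, and Prps1, which makes phosphoribosyl pyrophosphate from ribose 5-phosphate, in both genotypes. Eno2 averaged 15.7 ± 4.52 CPM in OE_20wk against 4.43 CPM in OE_8wk, and 18.8 ± 7.41 CPM in Ctrl_20wk against 3.83 CPM in Ctrl_8wk, with log2 fold changes of 1.83 ± 0.37 and 2.29 ± 0.38 (adjusted p = 0.00341 and 0.000433). Prps1 had log2 fold changes of 1.46 ± 0.26 in OE and 0.92 ± 0.25 in Ctrl (adjusted p = 0.00155 and 0.0113). Pdk4 had 0.74 ± 0.24 in OE and 1.76 ± 0.25 in Ctrl (adjusted p = 0.0411 and 0.000174). The difference between those Pdk4 values was −1.02 ± 0.35, with an unadjusted p of 0.0103 and an adjusted p of 0.982, and did not pass.

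Among the falls with the smallest adjusted p, Slc2a4, the insulin-responsive transporter GLUT4, had 42.2 ± 21.8 CPM in OE_20wk against 133 CPM in OE_8wk and 33.4 ± 11.7 CPM in Ctrl_20wk against 149 CPM in Ctrl_8wk. Its log2 fold changes were −1.66 ± 0.32 and −2.16 ± 0.33 (adjusted p = 0.00263 and 0.000262), beside 0.09 and 0.05 for Slc2a1. Bpgm, which makes 2,3-bisphosphoglycerate and is most abundant in red cells, fell by 1.16 ± 0.24 in OE and 1.59 ± 0.24 in Ctrl on the log2 scale (adjusted p = 0.00348 and 0.000238). It moved with the erythroid markers, whose sum was 688 to 3038 CPM in OE_20wk and 778 to 1319.6 CPM in Ctrl_20wk against 2190.3 to 7042 CPM in OE_8wk and 4408 to 9229 CPM in Ctrl_8wk, and their part in it was not tested. H6pd, the hexose 6-phosphate dehydrogenase of the endoplasmic reticulum, and Pdk3, another kinase of pyruvate dehydrogenase, fell in both genotypes, in OE with −0.73 ± 0.15 and −0.51 ± 0.11 (adjusted p = 0.00369 and 0.00461). Pdp2, another phosphatase of pyruvate dehydrogenase, and Aco1, the cytosolic aconitase, fell in both genotypes too, in Ctrl with −0.71 ± 0.12 and −0.74 ± 0.14 (adjusted p = 0.000566 and 0.000867). The transcription factor genes on the list, Mlxipl and Hif1a, are named after their values were seen. Mlxipl, the carbohydrate-responsive factor ChREBP, had −0.36 ± 0.18 in OE and −0.63 ± 0.18 in Ctrl (adjusted p = 0.165 and 0.0141), and Hif1a had 0.46 ± 0.20 and 0.04 ± 0.20 (adjusted p = 0.108 and 0.882).

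The comparison of OE with Ctrl asked whether extra LTA4H in fat cells changes the pathway at either age. None of the 54 genes was called with edgeR, at 20 weeks or at 8 weeks, where 0.0261% and 0.0208% of all genes were called higher and 0 lower. DESeq2 and voom also called 0 of the 54 at either age. At an unadjusted p under 0.05, 1 of the 54 was lower at 20 weeks and 0 at 8 weeks, against 3.97% and 2.21% of all genes. The libraries of OE and Ctrl overlap for all 54 genes at both ages, while at 20 weeks 1.24% of all genes were wholly higher and 1.49% wholly lower in OE, and at 8 weeks 0.787% and 0.448%. At 20 weeks all 54 fold changes were within 1.5-fold, from −0.30 to 0.42 on the log2 scale, with a median of 0.07 against 0.02 over all genes. At 8 weeks 53 were within 1.5-fold, with a median of −0.07 against 0.00. The median standard error was 0.16 at both ages, so a difference of the size seen for most genes was not detectable with these libraries.

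The gene with p under 0.05 was Pdk1, with 42.2 ± 3.15 CPM in OE_20wk and 52.1 ± 8.36 CPM in Ctrl_20wk (log2 fold change −0.30 ± 0.13, unadjusted p = 0.0320, adjusted p = 0.996). The largest differences at 20 weeks were those of Pfkfb3 (0.42 ± 0.29) and Slc25a1 (0.33 ± 0.28). At 8 weeks the largest was that of Me1 (gene ID 17436, chromosome 9, 86581363 to 86695914), with 667, 287, 584 and 579 CPM in OE_8wk against 1068, 1154, 904 and 331 CPM in Ctrl_8wk (−0.71 ± 0.35, unadjusted p = 0.0624, adjusted p = 1). The lowest value of each group is that of its library with epididymal transcripts. Without Ctrl_8wk 4 the Me1 libraries of OE and Ctrl do not overlap, and the log2 fold change was −0.98 ± 0.28 (edgeR adjusted p = 0.716). Without both of these libraries it was −0.77 ± 0.24 and was not called. Hk3 followed, at 0.51 ± 0.45, with 13.8 ± 8.30 CPM in OE_8wk and 9.68 ± 4.96 CPM in Ctrl_8wk.

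By segment, the sign at 20 weeks was positive for 11 of 12 TCA cycle genes, with a median of 0.08, but for 6 of 12 without OE_20wk 1. For the genes of cytosolic citrate and malate it was positive for 4 of 4, with a median of 0.13, and without that library for 3 of 4, with a median of 0.07. At 8 weeks the sign was negative for 8 of 12 TCA cycle genes, with a median of −0.02. It was negative for 4 of 4 genes of cytosolic citrate and malate, with a median of −0.23. Of all 54 genes, 37 were positive at 20 weeks and 12 at 8 weeks, against 53.5% and 50.5% of all genes tested. At 20 weeks the 10 mature adipocyte markers had a median of 0.38, and 0.17 without OE_20wk 1, and the 10 macrophage markers −0.31, and −0.11 without it. At 8 weeks the macrophage markers had a median of 0.34, and 0.13 without OE_8wk 2. The part of these markers in the segment values was not tested. OE_20wk 1, the library nearest to the 8-week values, had the highest mature adipocyte sum, 27247 CPM, and the lowest macrophage sum, 3641 CPM, of the 20-week libraries. Without it 0 of the 54 genes were called as well.

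Whether the genotype difference at 20 weeks departed from that at 8 weeks was tested as an interaction. There 0 of the 54 genes and 0% of all genes were called with edgeR, and 0 of the 54 had an unadjusted p under 0.05, against 3.39% of all genes. The smallest p belonged to Pdk1 (−0.35 ± 0.18, unadjusted p = 0.0728, adjusted p = 0.982), followed by Rpia (0.40 ± 0.22, 0.0908 unadjusted). The genotype differences at the 2 ages, which share no library, had a Pearson r of −0.274 over the 54 genes and −0.0789 over all genes.

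**Figure D5:**
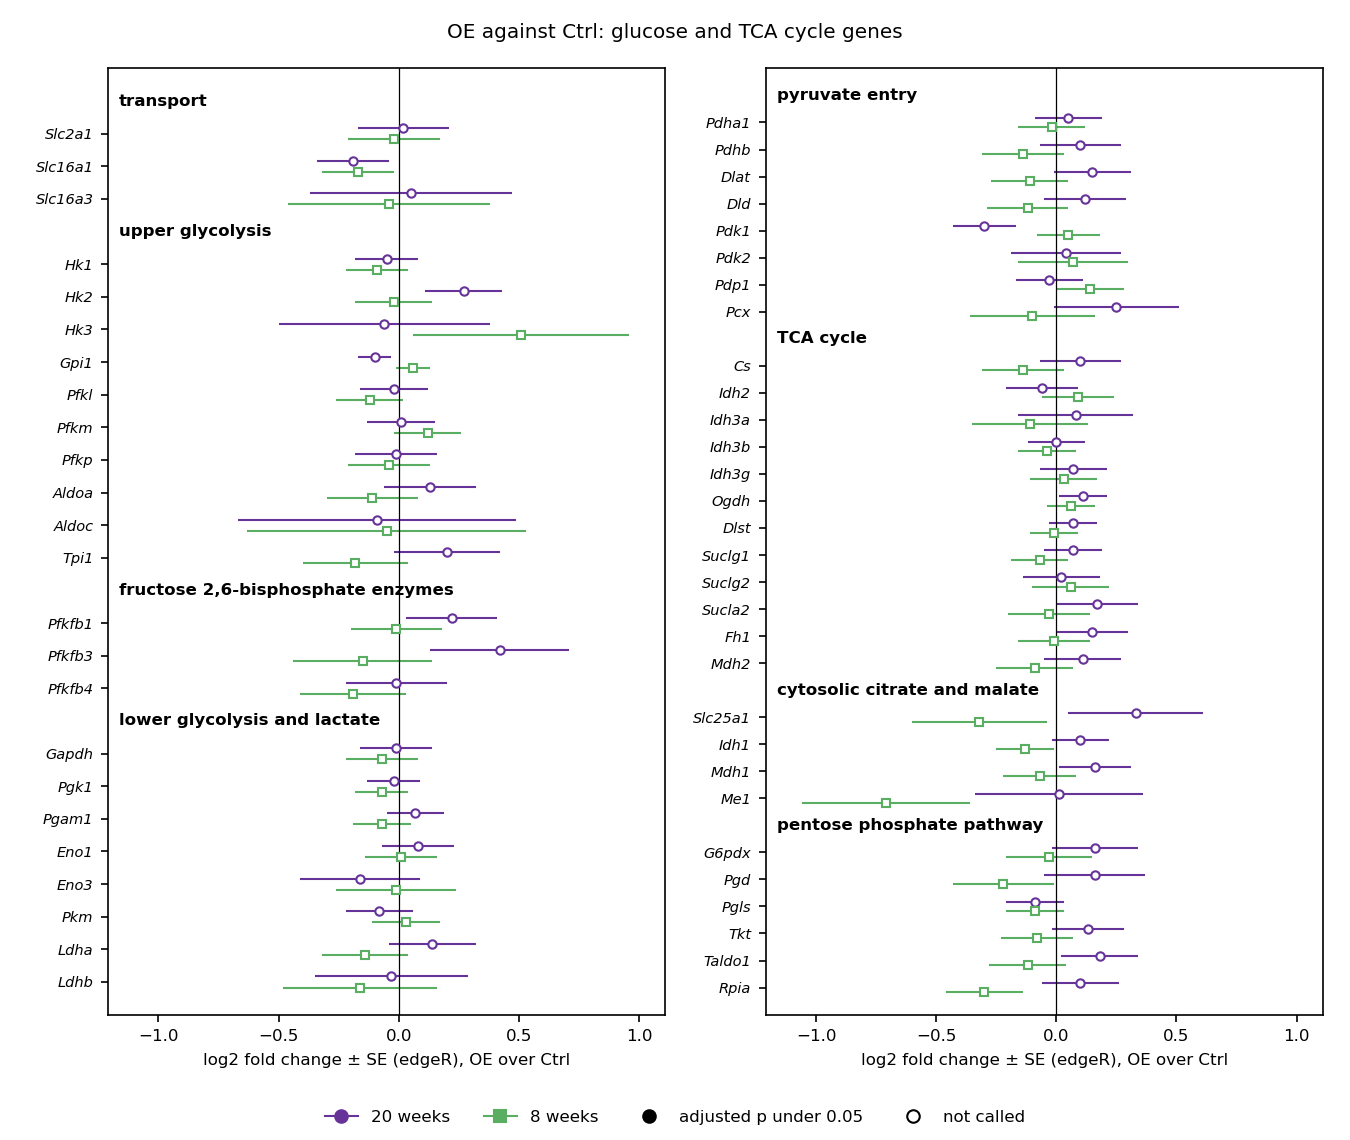
Log2 fold change (± SE, edgeR) of the 54 genes in OE over Ctrl at 20 weeks (circles) and at 8 weeks (squares), by segment; filled symbols would mark an adjusted p under 0.05, and there are 0. At 20 weeks the values lie between −0.30 and 0.42, and at 8 weeks Me1, at −0.71, lies farthest from 0.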

How the data were processed

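The 16 eWAT samples were prepared with a TruSeq stranded mRNA kit, per the labels' protocols. Tools named by the authors, per the submitters' processing notes, were bcl2fastq 2.20.0, Trimmomatic, HISAT2 2.1.0 and StringTie 2.1.3b on mm10. The annotation release and the strand setting were not given in the sources used here, so reads of antisense partners may be included. The read counts the authors deposited, whole numbers that were not normalised, were tested. The TPM values the authors deposited gave isoform shares, and their deposited FPKM values an alternative.

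Counts were fitted in R 4.3.3 with edgeR 4.0.16: filterByExpr at a minimum count of 10, TMM scaling and a robust quasi-likelihood fit of all 4 groups (12 residual degrees of freedom). Calls are Benjamini-Hochberg adjusted p under 0.05 over all 19189 genes. Errors of fold changes are standard errors. CPM use TMM library sizes. The script was tested on simulated counts.

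The members and lists were chosen with earlier results of these data known. Per segment, values per library are given for the gene with the smallest adjusted p and the largest fold change in each genotype, and for genes with p under 0.05 between genotypes. Listed companions are those with the 4 smallest adjusted p in each direction. Alternatives were DESeq2 1.42.0, limma 3.58.1 voom with quality weights, RLE scaling, no filter, only 2 groups, a replicate block, 2 surrogate variables (sva 3.50.0), leaving out each library, and 3 fits that leave out the libraries numbered 1 at 8 weeks, which stood apart in an earlier analysis, the pair with epididymal transcripts, or all 4 and OE_20wk 1. Positions are from RefSeq by gene ID (GRCm38.p6, that is mm10). Figures were drawn with matplotlib 3.10.9.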

Additional observations from a re-analysis of the deposited data

Results flagged for a closer look

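In 16 of 216 sets of 4 libraries (54 genes in 4 groups), or 7.41%, 1 library lay far from the other 3, by a measure that chance alone meets in about 1 in 20 sets. Of these, 9 were in Ctrl_8wk 4, the library with the most epididymal transcripts. There Hk1 had 75.6 CPM and Eno3 23.5 CPM, above the other 3 libraries of the group at 53.5 to 54.4 and 10.4 to 11.6 CPM. The other 7 lay below the rest of the group: Pfkl at 102 CPM against 134 to 139, Tpi1 at 298 against 653 to 677, Gapdh at 436 against 721 to 752, Pgk1 at 118 against 159.5 to 167, Pgam1 at 144 against 206 to 209, Pkm at 303 against 388 to 399, and Pgd at 307 against 645 to 687. The remaining 7 were spread over 7 libraries. Tkt had 338 CPM in OE_8wk 2, the other library with epididymal transcripts, against 467 to 492 in the rest of its group. Suclg2 had 75.1 CPM in OE_8wk 3 against 51.8 to 54.3, and Rpia 31.1 CPM in OE_8wk 1 against 23.4 to 23.8. Pgls had 47.4 CPM in OE_20wk 1 against 53.9 to 54.7, and Ldha 706 CPM in OE_20wk 4 against 749.8 to 756. Aldoc had 4.31 CPM in Ctrl_20wk 2 against 2.06 to 2.26, and Taldo1 302 CPM in Ctrl_20wk 4 against 255 to 259.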

How the results depend on the processing

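For OE against Ctrl at either age and for the interaction, 0 of the 54 genes were called under every alternative. For 20 against 8 weeks in OE, the 3 rises became 5 with DESeq2, 9 with voom, 5 with 2 surrogate variables, 5 without the libraries numbered 1 at 8 weeks, 5 without Ctrl_8wk 4 and OE_8wk 2, 6 without all 4 of these 8-week libraries and OE_20wk 1, and 3 to 5 with 1 library left out. The 8 falls became 13 with DESeq2, 16 with voom, 3 with surrogate variables, 16 and 18 without those 2 and those 5 libraries, and 5 to 12 with 1 library left out. In Ctrl, the 5 rises became 9 with voom, and the 16 falls 32 with voom, 1 with surrogate variables, 28 and 31 without those libraries, and 9 to 27 with 1 library left out. OE_20wk 1, Ctrl_8wk 4 and OE_8wk 2 lay outside the other libraries of their age, toward the other age, for 36, 19 and 18 of these same 54 genes. Counts from fits that leave them out are therefore not an independent check. The cause of the changes in count was not tested.

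Of the 43 other listed genes, DESeq2 called 1 higher in OE at 20 weeks. In OE, 5 rose with voom, and the 12 falls became 20 with voom, 6 with surrogate variables, 20 and 26 without those libraries, and 6 to 17 with 1 left out. In Ctrl the 27 falls became 13 with the replicate block, 2 with surrogate variables, and 15 to 29 with 1 left out.

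With surrogate variables 2 signs reversed in Ctrl, Suclg1 to 0.01 (adjusted p = 0.957) and Dlat to 0.43 (adjusted p = 0.0499). Replicate numbers did not pair the libraries in general, with correlations of deviations from group means of −0.571 to 0.826. The exception was OE_8wk 1 with Ctrl_8wk 1, at 0.826, and these 2 libraries moved together. The next highest was 0.278, for OE_8wk 4 with Ctrl_8wk 4. With the replicate block 3 members rose and 6 fell in OE, and 5 rose and 12 fell in Ctrl. Isoform shares from FPKM equal those from TPM by construction.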
